A study of Mus musculus with 4 samples.

Results

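Trp63, Tfap2a, Tfap2b, Tfap2c, Grhl1, Grhl2, Grhl3, Ovol1, Ovol2 and Klf5 are 10 transcription factor genes of the embryonic surface ectoderm, chosen by their symbols. All 10 were found among the 24771 features listed, of which 22036 were Ensembl genes. Their RNA-seq values were compared between salivary gland (SG) placodes made from mouse pluripotent stem cells and harvested on day 10 (2 samples) and E12.5 mouse submandibular glands (SMGs, 2 samples). The placodes were whole aggregates of 129w2, a single line of mouse embryonic stem cells, started from 3000 cells in each well, with 2% Matrigel in the medium. BMP4 (2 ng/ml) was added on day 3, RA (1 μM) and bFGF (25 ng/ml) followed on day 4, and supplementation with FGF10 (200 ng/ml) started on day 6. The strain of the mice, the dissection of the SMGs and any pooling of glands or aggregates are not given in the sources used here. The labels do not say that the samples of a group came from separate cultures or litters, so p-values measure only the spread between these samples, which may be technical.

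The surface ectoderm is the outer layer of the embryo that gives rise to the epidermis, the oral epithelium and the epithelium of the salivary glands. p63, encoded by Trp63, maintains the basal progenitors of stratified epithelia. AP-2 factors act in surface ectoderm and also in the neural crest and its facial mesenchyme, in trophoblast and in some neurons. Grainyhead-like factors switch on junction genes such as Cdh1, and Ovol factors repress mesenchymal genes such as Zeb1, so both help cells to stay epithelial. Klf5 is known for its role in dividing cells of many epithelia.

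Values are FPKM, fragments scaled by transcript length and by the mapped fragments of the sample, so levels of different genes can be set side by side. The summed FPKM was 361963 to 384773 per sample, and 17607 to 18153 features per sample were above 0. Read counts are not known from these values, so neither depth nor a smallest detectable FPKM can be given. The defining keratins of the salivary and oral basal layer, Krt5, Krt14 and Krt15, were each at 0 in the placodes, whereas Krt5 stood at 47.2 and 44.7 FPKM in the SMGs. Markers of other tissues were high in the SMGs. The summed FPKM of 10 craniofacial mesenchyme markers was 1550 and 1530, against 151 and 145 in the placodes, and that of 4 erythroid markers was 2160 and 2070, against 0.0258 and 0.255. Conversely, the 10 spinal cord progenitor and interneuron markers summed to 291 and 295 in the placodes and to 3.06 and 1.85 in the SMGs.

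The surface ectoderm factors were lower in the placodes, with 1 exception. In 9 of the 10 genes, both placode samples were below both SMG samples, and only the values of Tfap2c overlapped between the groups. Over the 20464 features above 0 in any sample, 41.4% were lower in the placodes without overlap. With detection set at 1 FPKM or more in each sample of a group, Tfap2a, Tfap2b, Tfap2c and Klf5 were detected in the placodes (4 of 10), and all but Ovol1 in the SMGs (9 of 10). Their FPKM summed to 10.2 and 9.65 in the placode samples and to 57.4 and 55.6 in the SMG samples. These are bulk samples, so fewer cells of a type and less RNA per cell cannot be told apart.

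**Figure D1:**
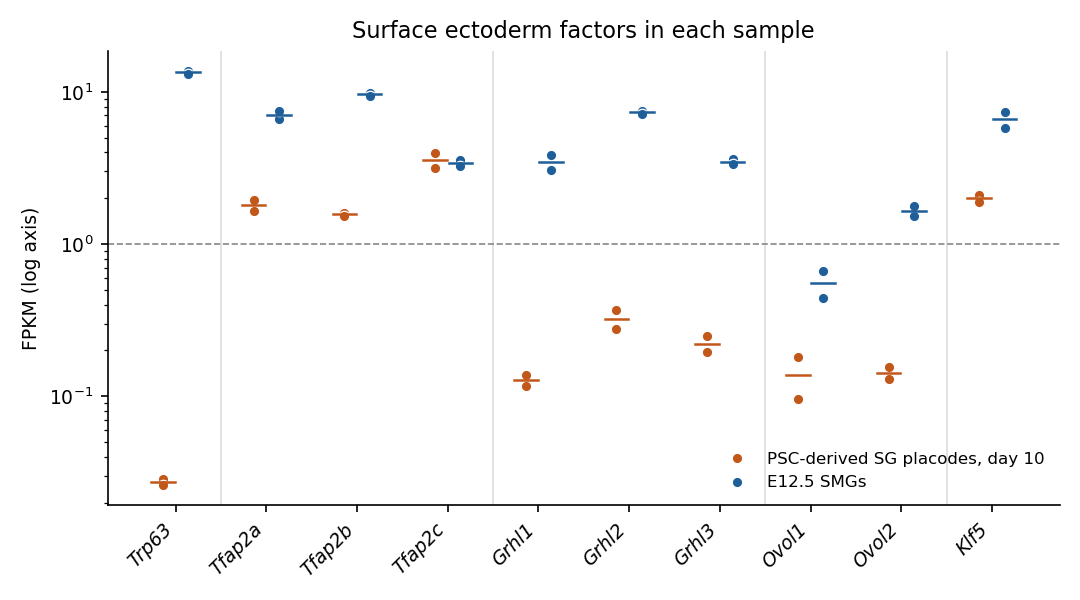
FPKM of the 10 surface ectoderm factors (log axis) in the 2 placode samples (orange) and the 2 SMG samples (blue), with a point per sample, a short line at the mean and a dashed line at an FPKM of 1. Trp63 is the lowest factor in the placodes (mean 0.0274) and the highest in the SMGs (mean 13.4), and Tfap2c is the only factor whose groups overlap.

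For the test, log2(FPKM + 1) was fitted with limma over the 13193 features whose 4 samples averaged 1 FPKM or more, with Benjamini-Hochberg adjustment over all of them. Of the 8 factors above this minimum, 7 fell in the placodes at an adjusted p below 0.05 and 0 rose. Among all tested features, 40.4% fell, 35.7% rose and 76.2% differed in either direction, so a call by itself is common in this comparison. A fall of at least 2-fold on this scale was called for the same 7 factors, against 15.2% of all tested features. Trp63, Grhl1, Grhl2 and Grhl3 had a mean FPKM below 1 in the placodes and passed the minimum through the SMG samples. Their SMG means thus had to be higher, and the count gives no support. Ovol1 and Ovol2 had means below 1 over the 4 samples and were not tested. In a fit without a minimum, which holds all 10 factors, 9 were lower in the placodes at an adjusted p below 0.05, against 31.1% of 20464 features lower and 58.1% called in either direction. The median difference in log2(FPKM + 1) was -1.69 over the 10 factors, where all 24771 listed features had a median of 0.00. Features outside the 20464 above 0 in any sample differ by 0 by construction, so that median is not a like background. Over the 8 tested factors the median was -1.93, where all tested features had a median of -0.05. Of these 8, 4 passed the minimum through the SMG samples, which fixed their direction, so this median gives no support either. For a single gene, permuting 2 and 2 samples exactly gives no p-value under 0.333, so no such test was used.

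**Figure D2:**
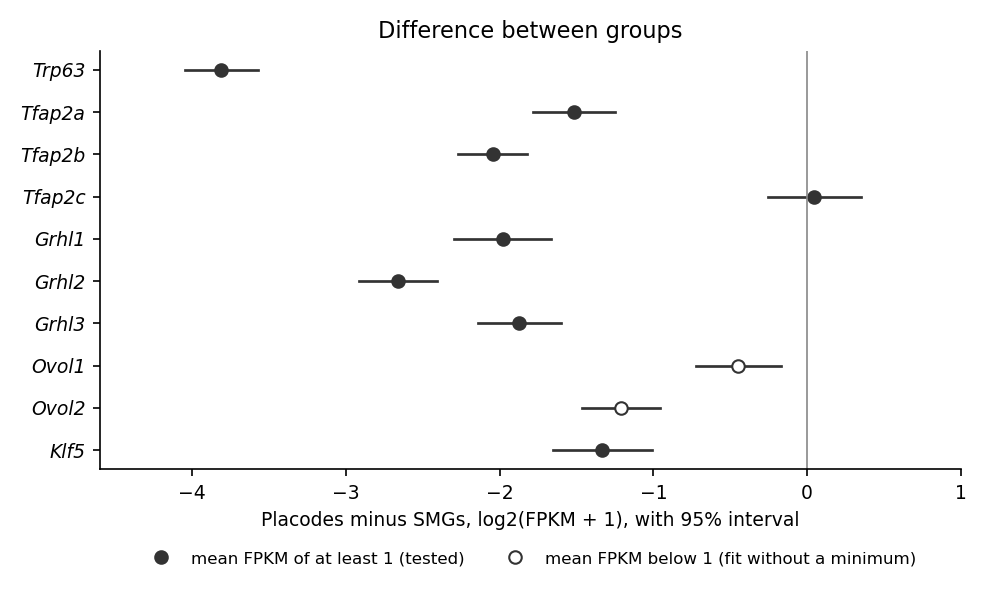
Difference between placodes and SMGs in log2(FPKM + 1) for each factor, with its 95% interval from limma. Filled points are the 8 tested factors, open points are Ovol1 and Ovol2 from the fit without a minimum, and only the interval of Tfap2c (-0.25 to 0.35) includes 0.

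The order of the factors also differed between the groups. In the SMGs, Trp63 stood first, followed by Tfap2b, Grhl2, Tfap2a, Klf5, Grhl3, Grhl1, Tfap2c, Ovol2 and Ovol1. Neighbours in that order overlapped for Grhl2 with Tfap2a, Tfap2a with Klf5, Grhl3 with Grhl1, and Grhl1 with Tfap2c. In the placodes, Tfap2c stood first with a mean of 3.56, followed by Klf5, Tfap2a, Tfap2b, Grhl2, Grhl3, Ovol2, Ovol1, Grhl1 and Trp63. There the neighbours Klf5 and Tfap2a, Ovol2 and Ovol1, and Ovol1 and Grhl1 overlapped. Ranked among all features above 0 in a sample, Trp63 was at percentile 68.6 and 68.4 in the SMG samples and at 2.06 and 2.09 in the placode samples. Tfap2c was at percentile 42.7 and 42.5 in the SMG samples and at 44.1 and 41.0 in the placode samples.

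Trp63 (ENSMUSG00000022510) lies on chromosome 16 of GRCm38 from 25683763 to 25892102 on the plus strand. Its FPKM was 0.0287 and 0.0262 for the placode samples, with 13.6 and 13.2 for those of the SMGs. The placode values were close to 0 and alike, the SMG values were high and alike, and the groups did not overlap. The log2 fold change was -3.81 (standard error 0.10, adjusted p = 6.09e-07), the largest fall of the 10 factors. GENCODE M21 lists 8 coding transcripts of Trp63 with 3 start positions, and the values per gene do not separate the TA from the ΔN forms. Trp73, which encodes the related factor p73, measured 0 and 0.109 FPKM for the placode samples, with 1.90 and 1.88 for those of the SMGs, and was below the minimum for the test. Trp53, the family member that responds to DNA damage and is expressed widely, was at 39.1 and 39.6 in the placodes and 62.8 and 61.6 in the SMGs (log2 fold change -0.65, adjusted p = 3.55e-05). Trp63 made up 17.4% and 17.2% of the FPKM summed over these 3 genes in the SMG samples, and 0.0732% and 0.0661% in the placode samples.

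Genes that p63 is known to act on in the basal layer, or that mark it, were taken as a list of 22. Of the 20 tested, 16 fell, 1 rose and 3 did not pass the threshold. Of those that fell, 12 had a placode mean below 1 FPKM and passed the minimum through the SMGs, so this count gives no support either. The median difference in log2(FPKM + 1) over all 22 was -2.10, which includes 3 genes listed at 0 in the placodes. These were the basal keratins Krt5, Krt14 and Krt15, with SMG values of 19.9 and 17.8 for Krt14 and of 128 and 121 for Krt15. Perp, a p63 target in desmosomes, was at 1.07 in both placode samples and at 27.3 and 24.8 in the SMG samples. It was thus far lower in each placode sample than in either SMG sample, as Trp63 was. Fgfr2, whose IIIb form is the receptor of FGF10, was the member that rose, from 26.0 and 26.8 in the SMG samples to 37.5 and 35.5 in the placode samples (adjusted p = 4.02e-04). The values per gene do not separate the IIIb form from other forms of Fgfr2. The desmosomal cadherin Dsc3 and the basement membrane protein gene Fras1 did not pass, at 0.19 (adjusted p = 0.224) and -0.04 (adjusted p = 0.740) on the log2 scale. Dst, which also encodes isoforms used in neurons and muscle, was the third gene short of the threshold, at -0.08 (adjusted p = 0.684). Perp and Dst were picked for mention after their values were seen.

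The AP-2 genes split. Tfap2b, which acts in kidney tubules and facial mesenchyme among others (ENSMUSG00000025927, chromosome 1 from 19208914 to 19238576), measured 1.61 and 1.53 FPKM for the placode samples, with 9.84 and 9.39 for those of the SMGs. Its log2 fold change was -2.05 (standard error 0.09, adjusted p = 5.09e-06). Tfap2a (ENSMUSG00000021359, chromosome 13 from 40715302 to 40738376), a factor needed for closure of the face and the cranial neural tube, was at 1.66 and 1.96 in the placodes and at 6.62 and 7.44 in the SMGs. The log2 fold change was -1.52, with a standard error of 0.11 and an adjusted p of 3.88e-05. Both genes were low but above 1 FPKM in each placode sample, without overlap between the groups. Tfap2a shares exonic bases with 3 annotated genes on the other strand, and strand-specific counting is not stated, so its reads could not be told apart from theirs.

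Tfap2c (ENSMUSG00000028640, chromosome 2 from 172549593 to 172558622) measured 3.98 and 3.15 FPKM for the placode samples, with 3.54 and 3.25 for those of the SMGs. Of the placode samples, 1 was above and the other below both SMG samples. The log2 fold change was 0.05 (95% interval -0.25 to 0.35, adjusted p = 0.737), so differences within that interval in either direction could not be told from 0 with these samples. It was 0.00 without SMG sample 2 and -0.08 without placode sample 1, so its sign rested on single samples. Tfap2d was at 0.0642 and 0 in the placodes and listed at 0 in both SMG samples. Tfap2e was at 0.182 and 0.336 in the placodes and also listed at 0 in the SMGs. The FPKM of the 5 AP-2 genes summed to 7.49 and 6.97 in the placode samples and to 20.0 and 20.1 in the SMG samples. Tfap2c made up 53.1% and 45.1% of that sum in the placodes, but 17.7% and 16.2% in the SMGs. The share of Tfap2b was 21.5% and 22% against 49.2% and 46.8%, and that of Tfap2a was 22.1% and 28.1% against 33.1% and 37.0%. Tfap2c was thus the leading AP-2 gene in the placodes in level, and Tfap2b in the SMGs, with no overlap of shares for any of these 3 genes.

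**Figure D3:**
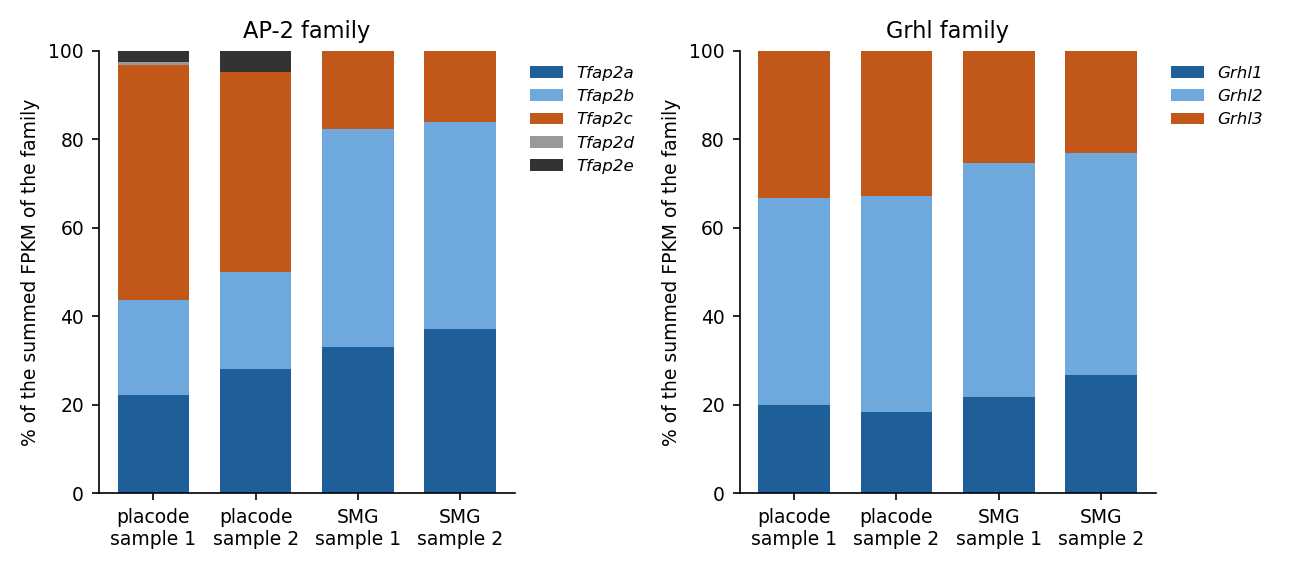
Share of each gene in the summed FPKM of its family, in percent, for the 5 AP-2 genes and the 3 Grhl genes, with a bar per sample. Tfap2c takes 53.1% and 45.1% of the AP-2 sum in the placodes, but 17.7% and 16.2% in the SMGs, whereas Grhl2 takes between 46.8% and 52.8% of the Grhl sum in all 4 samples.

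Cofactors of AP-2 did not move in 1 direction. Of 4 genes, all tested, 2 rose and 2 fell. Cited2, a coactivator of AP-2, was at 62.3 and 57.7 in the placodes and 21.2 and 23.3 in the SMGs (log2 fold change 1.39, adjusted p = 6.84e-06). Its relative Cited4 was at 0.433 and 0.285 against 3.08 and 2.37 (log2 fold change -1.45, adjusted p = 1.50e-04). Kctd15, which inhibits AP-2 activity in neural crest formation, was 31.7 and 33.4 in the placodes and 21.1 and 19.0 in the SMGs (log2 fold change 0.68, adjusted p = 1.76e-04). Its paralog Kctd1 was at 10.3 and 9.61 against 16.6 and 18.3 (log2 fold change -0.75, adjusted p = 1.94e-04).

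AP-2 genes are used by several lineages, and markers of these were read beside them. Of 8 neural crest and Schwann precursor markers, 7 were tested, of which 6 fell and 1 did not pass. Among all tested features, 40.4% fell, 35.7% rose and 76.2% differed in either direction, and 1 of these 6 passed the minimum through the SMGs. The falls were largest for Erbb3, Ets1 and Sox10, with log2 fold changes between -2.96 and -2.76, and smallest for Ngfr (-0.35). Foxd3, at 4.40 and 3.56 against 2.99 and 3.15, did not pass (log2 fold change 0.29, adjusted p = 0.0640), although it did without placode sample 2 (0.41, adjusted p = 0.0415). Ngfr lost its call without placode sample 1 (adjusted p = 0.0501). Of the 10 craniofacial mesenchyme markers, 9 were tested, of which 8 fell and 1 rose. The minimum was passed through the SMGs by 2 of the 8 and through the placodes by the 1 that rose. These counts are a description only. Barx1 (-6.94), Fgf10 (-5.19) and Prrx1 (-4.58) had the largest falls on the log2 scale and Pdgfrb (-1.56) and Prrx2 (-1.37) the smallest, and Alx1 rose by 1.75. The summed FPKM of the neural crest markers was 41.9 and 41.0 in the placodes and 110 and 100 in the SMGs. All 10 spinal cord markers rose, 9 of them having passed the minimum through the placodes, from 2.15 for Olig3, 2.41 for Sox1 and 2.47 for Tlx3 to 5.34 for Pax6, 5.90 for Lhx5 and 6.66 for Lhx1 on the log2 scale. The part of these lineages in the values of Tfap2a and Tfap2b was not tested.

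Tfap2c is also known from trophoblast and from early germ cells. Of 6 trophoblast markers, 3 were tested and all 3 rose, each having passed the minimum through the placodes. Tpbpa, a gene of the spongiotrophoblast, stood at 17.1 and 14.3 FPKM in the placodes and at 0 in both SMG samples. Prl3d1, which encodes a placental lactogen of giant cells, was at 2.44 and 3.83 and also listed at 0 in the SMGs. Hand1, which trophoblast shares with other lineages, was at 2.67 and 3.82 in the placodes and at 0.412 and 0.0275 in the SMGs. The other markers were low, with Cdx2 at 0.718 and 0.656 in the placodes, Eomes at 0.0318 or below in all 4 samples and Gcm1 listed at 0 in all 4. Among 6 pluripotency and germ cell markers, Esrrb alone was tested, at 20.0 and 19.6 against 0.0630 and 0.0628. Pou5f1 was at 0.403 and 0.340 in the placodes and listed at 0 in the SMGs, and Dppa3 was listed at 0 in all samples. Nanog was at 0.149 and 0.234 in the placodes and at 0.0793 and 0.251 in the SMGs, so its groups overlapped. Zfp42 was at 0.222 and 0.0926 against 0.06825 and 0. Prdm1, which acts in early germ cells, went the other way, at 0.257 and 0.463 in the placodes and 1.515 and 1.651 in the SMGs. The part of such cells in the level of Tfap2c was not tested.

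All 3 grainyhead-like genes fell. Grhl2 (ENSMUSG00000022286, chromosome 15 from 37233036 to 37363569), which activates Cdh1 and Cldn4 in epithelia, measured 0.275 and 0.368 FPKM for the placode samples, with 7.49 and 7.21 for those of the SMGs (log2 fold change -2.66, standard error 0.10, adjusted p = 3.06e-06). Grhl3 (ENSMUSG00000037188, chromosome 4 from 135541888 to 135573630), known for its roles in the skin barrier and neural tube closure, was at 0.194 and 0.248 against 3.60 and 3.34. Its log2 fold change was -1.87 (standard error 0.11, adjusted p = 1.66e-05). Grhl1 (ENSMUSG00000020656, chromosome 12 from 24572283 to 24617391), which regulates desmosomal cadherins, was at 0.117 and 0.138 against 3.09 and 3.84 (log2 fold change -1.98, standard error 0.13, adjusted p = 2.43e-05). Every placode value of the family was below 0.4 and every SMG value above 3. Grhl2 shares exonic bases with 1 gene on the other strand.

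The shares within the family differed less between the tissues than the levels did, although those of each gene did not overlap. Grhl2 made up 46.8% and 48.8% of the summed Grhl FPKM in the placodes, and 52.8% and 50.1% in the SMGs. Grhl1 held 20.0% and 18.3% against 21.8% and 26.7%. Grhl3 held 33.2% and 32.9% in the placodes and 25.4% and 23.2% in the SMGs. The sums themselves were 0.587 and 0.755 against 14.2 and 14.4. The related CP2 genes Tfcp2 and Ubp1, which are expressed in many tissues, were at 19.6 and 17.9 and at 22.2 and 25.6 in the placodes. Tfcp2 rose by 0.20 (adjusted p = 0.0420) and Ubp1 fell by 0.31 (adjusted p = 0.0119) on the log2 scale, which in both is well below 2-fold. The call of Tfcp2 was lost without any 1 of the 4 samples (adjusted p 0.0505 to 0.199), and that of Ubp1 without either SMG sample or placode sample 1 (adjusted p 0.0507 to 0.0880).

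Of 20 junction and polarity genes that grainyhead-like factors are known to act on or that share their epithelial expression, 17 were tested. A total of 16 fell and 1 rose, where 40.4% of all tested features fell. Of those 16, 8 had a placode mean below 1 FPKM and passed the minimum through the SMGs, so the count gives no support. Over all 20 genes the median difference in log2(FPKM + 1) was -1.80. Epcam was at 1.75 and 2.69 in the placodes and 87.2 and 78.8 in the SMGs (log2 fold change -4.72, adjusted p = 1.02e-06). Cdh1, which encodes E-cadherin, was at 1.11 and 1.18 against 28.2 and 24.7, a log2 fold change of -3.68, and the splicing regulator Esrp1 followed at -3.61. Cgn (-0.86) and the protease gene Prss8 (-0.91) had the smallest falls on the log2 scale. The tight junction gene Tjp3 rose, with 3.77 and 3.96 in the placodes and 3.00 and 2.27 in the SMGs (log2 fold change 0.43, adjusted p = 0.0212). Its call was lost without SMG sample 2 (0.28, adjusted p = 0.0849) and without placode sample 1 (adjusted p = 0.0979) or 2 (adjusted p = 0.126).

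The promoters of Grhl1, Grhl3 and Ovol2 are shown because these 3 genes were low together in the placodes. RefSeq promoters on GRCm38.p6, with 250 bases before and 50 after a start, were at hand for 5 of the 10 factors. Each is given 5′ to 3′ on the strand of its gene, in lower case, with the AP-2 palindrome GCCNNNGGC in capitals where these letters occur. The Grhl1 sequence is chr12:24572037-24572336 on the plus strand, that of Grhl3 is chr4:135573583-135573882 on the minus strand, and that of Ovol2 is chr2:144331313-144331612 on the minus strand.
Grhl1: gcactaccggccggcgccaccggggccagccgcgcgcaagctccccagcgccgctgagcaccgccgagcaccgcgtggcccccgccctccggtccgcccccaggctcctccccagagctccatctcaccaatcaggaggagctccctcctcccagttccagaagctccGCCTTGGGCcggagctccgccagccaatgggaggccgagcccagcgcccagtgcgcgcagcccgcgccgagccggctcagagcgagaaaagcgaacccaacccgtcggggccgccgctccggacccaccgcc
Grhl3: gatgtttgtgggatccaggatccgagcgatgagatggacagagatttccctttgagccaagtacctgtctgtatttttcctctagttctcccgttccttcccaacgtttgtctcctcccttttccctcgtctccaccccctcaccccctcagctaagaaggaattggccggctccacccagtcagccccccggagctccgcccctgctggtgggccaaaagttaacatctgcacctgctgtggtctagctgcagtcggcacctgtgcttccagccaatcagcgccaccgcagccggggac
Ovol2: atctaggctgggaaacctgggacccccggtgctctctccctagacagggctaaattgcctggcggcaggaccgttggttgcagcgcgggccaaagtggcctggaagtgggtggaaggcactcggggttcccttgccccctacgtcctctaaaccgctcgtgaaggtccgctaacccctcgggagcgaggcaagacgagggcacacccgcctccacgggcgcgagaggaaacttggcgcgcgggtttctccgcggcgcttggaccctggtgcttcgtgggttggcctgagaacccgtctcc
The AP-2 palindrome, which reads alike on both strands, was in 1 of the 7 promoters of these 5 factors, the Grhl1 promoter shown, from position 169. It was in 16.6% of all 32851 promoters in the same table. The grainyhead core ACCGGT was in none of the 7 and in 2.33% of all, the Ovol core CCGTTA in none and in 2.76%, and the p53-family decamer in none and in 8.36%, with both strands searched. The share of G and C was 75.3% for the Grhl1 promoter shown, 58.3% for Grhl3 and 65.7% for Ovol2, against a median of 52.7% over all promoters. CG occurred 35, 12 and 25 times in these promoters, against a median of 7 times. A second Grhl1 promoter, chr12:24580469-24580768, is not shown. It had 51.3% G and C and 0 CG, both below the medians. A match of letters is a description of the sequence and not a binding site.

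The Ovol genes had the lowest levels of the 10 factors in the SMGs. Ovol2 (ENSMUSG00000037279, chromosome 2 from 144305175 to 144332146), a repressor of Zeb1, was at 0.131 and 0.156 for the placode samples, with 1.52 and 1.77 for those of the SMGs. Ovol1 (ENSMUSG00000024922, chromosome 19 from 5549136 to 5560646), which acts in the exit of epidermal progenitors from division, was at 0.0954 and 0.181 against 0.668 and 0.440. The groups did not overlap for either gene. In the fit without a minimum, the log2 fold change was -1.21 (standard error 0.09, adjusted p = 7.18e-04) for Ovol2 and -0.45 (standard error 0.10, adjusted p = 0.0207) for Ovol1. At such low values the pseudocount shrinks the difference, and with a pseudocount of 0.1 the differences were -2.84 and -1.46. Ovol3 was listed at 0 in 3 samples and at 0.0716 in SMG sample 2. Ovol1 shares exonic bases with 2 genes on the other strand and Ovol2 with 1.

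Of 8 mesenchymal and EMT genes, among them targets of Ovol repression, all were tested, and 4 rose and 4 fell. Zeb1 was at 24.9 and 26.5 in the placodes and 16.7 and 15.0 in the SMGs (log2 fold change 0.67, adjusted p = 2.51e-04), and Zeb2 rose by 0.77. The fourth gene that rose, Vim, lost its call without placode sample 1 (0.25, adjusted p = 0.0547). The falls included Snai2, at 1.33 and 2.34 against 24.1 and 24.5 (log2 fold change -3.18), Twist2 (-1.94) and Snai1 (-1.52). Cdh2, which encodes N-cadherin of mesenchyme and neural tissue, rose most, from 23.0 and 21.1 in the SMGs to 101.8 and 106 in the placodes (log2 fold change 2.19, adjusted p = 7.64e-07). The same 10 spinal cord markers that rose are given above, and their part in the levels of Zeb1, Zeb2 and Cdh2 was not tested.

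Klf5 (ENSMUSG00000005148, chromosome 14 from 99298691 to 99315036) measured 2.11 and 1.90 FPKM for the placode samples, with 7.42 and 5.77 for those of the SMGs. The SMG samples spread more than the placode samples, and the groups did not overlap. The log2 fold change was -1.33 (standard error 0.13, adjusted p = 1.61e-04), the smallest fall among the 7 factors called. Klf4, which acts in the differentiation of the skin barrier and in pluripotent cells, was at 1.21 and 0.966 against 9.35 and 10.6 (log2 fold change -2.39, adjusted p = 6.42e-06). Klf2, best known from endothelium, was at 0.298 and 0.263 against 4.74 and 5.94 (log2 fold change -2.30, adjusted p = 1.32e-05). The 3 endothelial markers Kdr, Pecam1 and Cdh5 fell too, 2 of them having passed the minimum through the SMGs. Their summed FPKM was 9.66 and 9.08 against 81.0 and 87.3, and their part in the value of Klf2 was not tested. The widely expressed Klf3 and Klf6 fell by 0.42 (adjusted p = 1.23e-03) and 0.44 (adjusted p = 3.76e-03) on the log2 scale, and the call of Klf6 was lost without placode sample 1 (adjusted p = 0.0529). Among the 12 listed relatives of the 10 factors, 7 were tested, of which 6 fell and 1 rose. Since 1 of the 6 passed the minimum through the SMGs and 40.4% of all tested features fell, the count is a description only. Tfcp2l1 was below 0.5 in every sample.

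Among 16 further factors of surface ectoderm and its placodes, 11 were tested, of which 7 fell, 1 rose and 3 did not pass the threshold. As 8 of the 11 passed the minimum through the SMGs, 6 of those that fell among them, the count is a description only. Pitx1, a factor of the oral ectoderm, had the largest fall, from 245 and 253 in the SMGs to 0.539 and 0.429 in the placodes. Ehf, an epithelial ETS factor, had SMG values of 12.8 and 13.4 and was listed at 0 in each placode sample. Gata2 rose, with 2.96 and 3.15 in the placodes and 1.03 and 1.06 in the SMGs (log2 fold change 0.99, adjusted p = 2.19e-04). Msx2, below the minimum for the test and picked after its values were seen, was also higher in the placodes. It was at 1.17 and 1.34 against 0.0660 and 0.0841. Of all 16, 12 were lower in the placodes without overlap and 2 higher, where 41.4% of features above 0 in any sample were lower. Gata3, at 0.713 and 1.2 against 1.43 and 1.37, did not pass (adjusted p = 0.106), nor did Dlx3 (adjusted p = 0.0582), which was picked for mention after its values were seen. The calls of both genes depended on 1 sample. Dlx3 (-0.58, adjusted p = 0.0115) passed without SMG sample 2, and Gata3 (-0.49, adjusted p = 0.0293) without placode sample 2.

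Set against an epithelial gene of the same sample, the factors parted into groups. Relative to Cdh1, Grhl2 was at 0.247 and 0.313 for the placode samples, with 0.265 and 0.291 for those of the SMGs, so these ratios overlapped. The ratio of Grhl1 to Cdh1 was 0.106 and 0.118 against 0.109 and 0.155, which also overlapped, and that of Grhl3 was 0.175 and 0.211 against 0.128 and 0.135. Trp63 stayed lower on this scale, at 0.0258 and 0.0223 in the placodes and 0.483 and 0.533 in the SMGs, a 21.1-fold difference of the means. Tfap2c (3.58 and 2.68 against 0.126 and 0.131), Klf5 (1.90 and 1.61 against 0.263 and 0.233), Tfap2a and Tfap2b were higher than Cdh1 in the placodes and below it in the SMGs. Ovol2 and Ovol1 had 1.99 and 5.78 times the ratio of the SMGs, from placode values of 0.0954 to 0.181 FPKM. Cdh1 itself was at 1.11 and 1.18 FPKM in the placodes and 28.2 and 24.7 in the SMGs, so these ratios also carry its fall. With Epcam in place of Cdh1, Trp63 was 12.4-fold lower relative to it in the placodes. The other 9 factors were 1.41 to 42.0 times higher relative to it in the placodes, with Grhl1 and Grhl2 at the low end. Cdh1 and Epcam are both in the list of junction genes above, and Cdh1 is a known target of Grhl2. They are therefore not independent references for the Grhl genes.

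Krt8, which encodes a keratin of simple epithelia, gave another order. Its FPKM was 34.4 and 35.6 in the placodes and 36.1 and 28.3 in the SMGs (log2 fold change 0.13, adjusted p = 0.322). Relative to Krt8, Tfap2c was at 0.116 and 0.0884 in the placodes and 0.0983 and 0.115 in the SMGs. The other 9 factors were lower in the placodes on this scale, by 3.58-fold for Klf5, 4.33-fold for Tfap2a, 25.3-fold for Grhl2 and 538-fold for Trp63. Of the other simple epithelium markers, Krt19 and Krt7 rose by 0.85 (adjusted p = 3.63e-03) and 1.00 (adjusted p = 1.24e-03), and Krt18 did not pass (log2 fold change 0.34, adjusted p = 0.0541). Without SMG sample 1, all 4 simple epithelium markers passed, Krt8 at 0.30 (adjusted p = 0.0136) and Krt18 at 0.52 (adjusted p = 0.0223), and Krt19 did not pass without placode sample 1 (adjusted p = 0.0548) or 2 (adjusted p = 0.0689). Such ratios compare the whole samples, and they do not show that the genes were in the same cells. They are descriptions of 2 samples in each group, with no test.

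**Figure D4:**
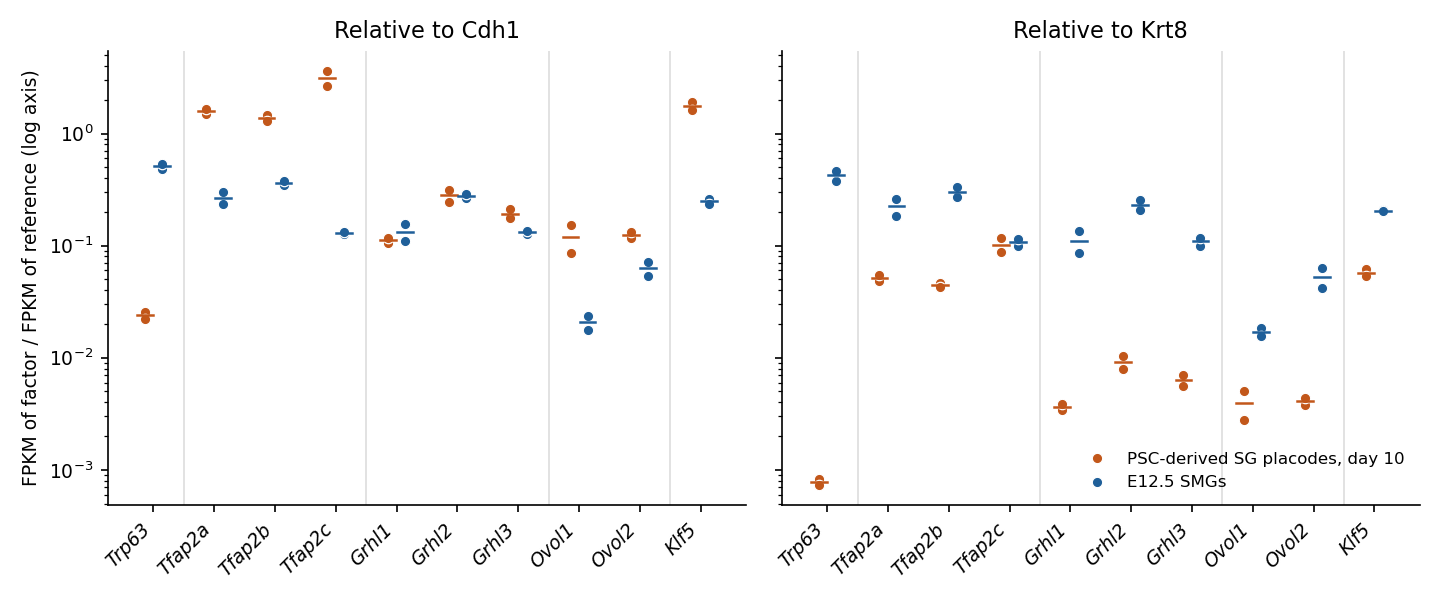
FPKM of each factor divided by that of Cdh1 (left) or Krt8 (right) in the same sample, on a log axis, with a point per sample and a short line at the mean of each group. The Grhl2 ratios to Cdh1 overlap between the groups (0.247 and 0.313 against 0.265 and 0.291), whereas Trp63 is lower in the placodes relative to either gene.

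The genes most like a factor across the 4 samples were found by the Euclidean distance of log2(FPKM + 1). Nearest to Trp63 were Ehf (distance 0.10), Emcn (0.11) and Aplnr (0.19), of which Emcn and Aplnr are best known from endothelium. Near to Grhl2 were Syt9 (0.08) and Reps2 (0.14). Tfap2a was closest to Mbnl3 (0.15), Bmp6 (0.20) and Itgb3 (0.20). Klf5 was closest to Mgat4a (0.18), Invs (0.22) and Kcnk1 (0.24), and Ovol1 to Nlrc3 (0.06), Chmp4c (0.08) and Syne3 (0.10). With 2 groups of 2 samples, such a distance reflects little more than the levels in the groups.

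The remaining lists place the factors among other cell types. Of 6 cornified epithelium markers, Krt10 alone was tested, with a log2 fold change of -0.08 (adjusted p = 0.606), and no sample had Krtdap above 0. Of 5 endoderm markers, 4 were tested, and Gata6 (-3.17), Sox17 (-2.13) and Foxa1 (-1.65) fell while Shh rose by 1.86 on the log2 scale. Foxa2, below the minimum for the test, was also higher in the placodes, at 1.32 and 1.98 against 0.0296 and 0. All 3 tested erythroid markers fell, with log2 fold changes of -3.09 for Alas2 and -9.62 for Hba-a1, and with Hbb-y listed at 0 in the placodes. Both tested macrophage markers fell, Csf1r by 0.84, and C1qa, listed at 0 in the placodes. Over the 147 genes of the 17 lists, 114 were tested, of which 76 fell and 28 rose, where 40.4% of all tested features fell and 35.7% rose. The minimum was passed through the SMGs alone by 39 of the 76 and through the placodes alone by 16 of the 28, so these counts are a description only.

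**Figure D5:**
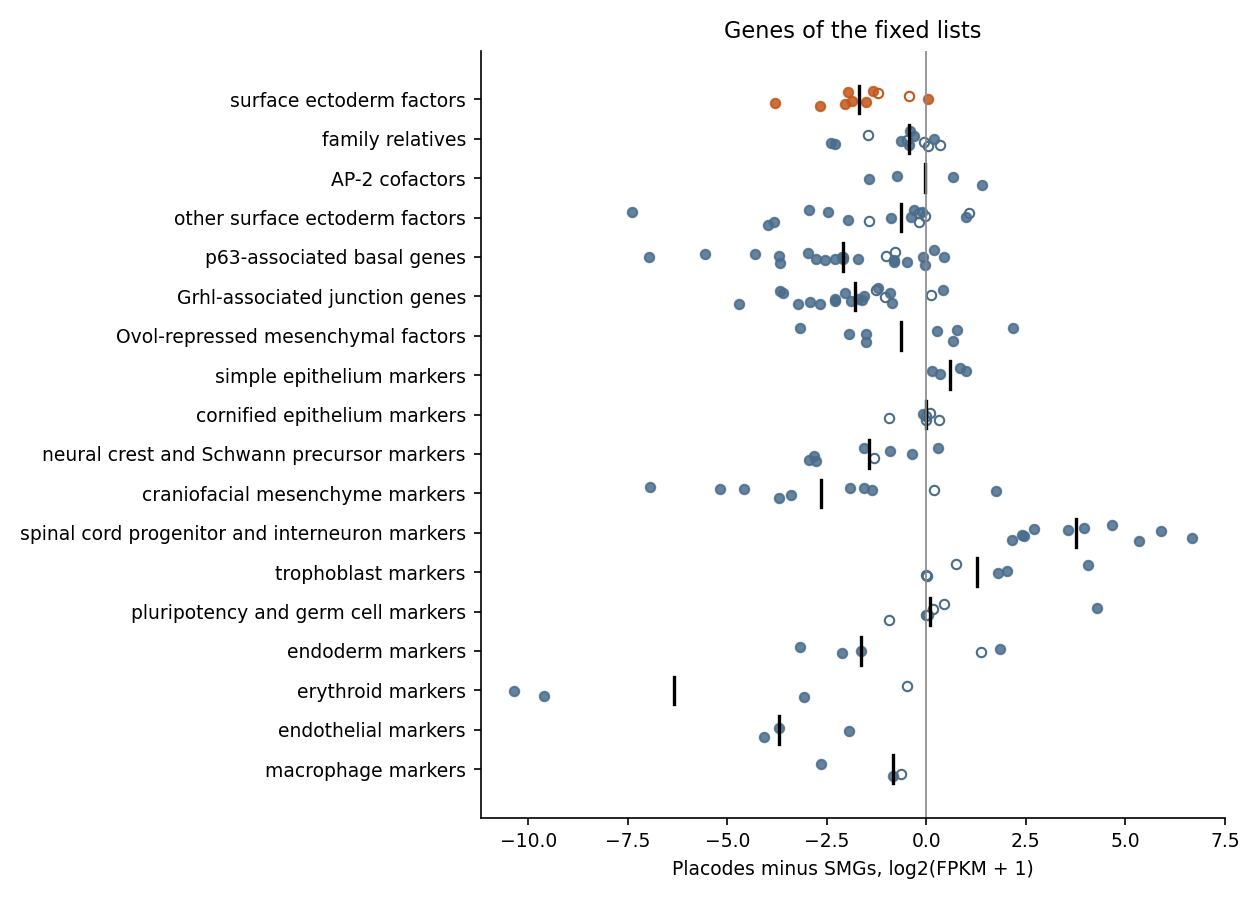
Difference between placodes and SMGs in log2(FPKM + 1) for each gene of the fixed lists, with filled points for tested genes, open points for genes with a mean FPKM below 1, and a bar at the median of each list. The surface ectoderm factors (orange) have a median of -1.69 and lie mostly left of 0, as do the basal and junction genes, and the 10 spinal cord markers all lie to the right.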

How the data were processed

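RNA-seq of 2 samples of PSC-derived SG placodes and 2 samples of E12.5 SMGs was used, grouped by the sample labels. The authors mapped paired-end reads with HISAT2 and deposited FPKM per gene and sample. The submitters' processing notes name GRCm38 and GRCh38 without roles. The aligner version, annotation, strandedness and FPKM program are not given in the sources used here. The values showed no steps of whole reads, so depth is unknown and no counting interval is given.

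Log2(FPKM + 1) was fitted with limma 3.58.1 in R 4.3.3 (lmFit, and eBayes with a mean-variance trend), modelling nothing but the group. Features with a mean FPKM of at least 1 were tested, two-sided, with Benjamini-Hochberg adjustment over all 13193. Means, ratios and figures were made in Python 3.11.15. Coordinates are from GENCODE M21 and promoters from RefSeq, both on GRCm38. The 10 factors, the 17 lists and the tests were chosen with earlier results of these data known. Named are all factors, relatives and cofactors and the 3 highest and 3 lowest tested genes of each other list by log2 fold change, and the 3 nearest genes of 1 factor per family. The fit was first checked on simulated data. Alternatives changed the pseudocount, the minimum FPKM, the scaling, the replicate block, the variance trend, the detection level and the samples used. The 2735 assembled loci were fitted but not named, and some genes that the rule names are not reported here.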

Additional observations from a re-analysis of the deposited data

How the results depend on the processing

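Over 13 alternatives, 96 of 98 refitted values of the 8 tested factors kept their direction and their side of the threshold. The 2 others concerned Tfap2c, whose log2 fold change ran from -0.08 to 0.18 with 1 replicate left out, with 0.00 without SMG replicate 2 and -0.08 without placode replicate 1 (adjusted p over the alternatives 0.239 to 0.999), so it has no settled sign. At a minimum mean FPKM of 5, only 2 of the 10 factors, Trp63 and Tfap2b, remained and both were called, and 66 genes of the other lists were called in place of 104. With 1 replicate left out, 7 to 8 factors, 102 to 107 genes of the other lists and 8622 to 9142 of all features were called, and the lone sample of a group was assumed to vary like the other group. At a detection level of 0.1 FPKM, 8 factors were detected in the placodes, and at 5 FPKM 0 in the placodes and 5 in the SMGs. The pseudocount set the size of the falls of low genes, with Trp63 between -8.88 and -3.78 over all alternatives. The replicate numbers of the groups share no stated origin, and the deviations of same-numbered samples had r = -0.0348 across 13193 features. With the replicate number as a block, 7 factors, 104 genes of the other lists and 10043 features were called, against 7, 104 and 10049 without it. The median of all tested features moved from -0.05 to 0.01 at most under other scalings. Of 221 list counts under the alternatives, 14 moved by over 1.5 times, among them that of the simple epithelium markers, which was 4 without SMG replicate 1 and 1 without either placode replicate, against 2. Leaving out 1 replicate also changed the calls of Dlx3, Foxd3, Gata3, Klf6, Krt8, Krt18, Krt19, Ngfr, Tfcp2, Tjp3, Ubp1 and Vim. The depth of the samples is unknown, so its effect on the low values could not be given.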
